A study of Mus musculus with 16 samples.

Results

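The 3 hairpin lines of CT26 cells, a mouse colon carcinoma line of BALB/c origin, were compared with the empty vector line, and the genes that lay on the same side of control in all 3 hairpin lines were followed. The shSep15 cells carried a hairpin against Sep15 (gene Selenof), the shTR1 cells a hairpin against thioredoxin reductase 1 (gene Txnrd1), and the shTR1/shSep15 cells both, while the control cells carried the pU6-m3 vector with no hairpin. All lines were stably transfected, so every comparison had a single control line, and whether the mRNA samples of a line came from 1 clone or from separate cultures is not given in the sources used here. The methods mention work with more than 1 hairpin sequence and with several independent clones, but do not tie either to the arrays. Sets of 4 arrays from different mRNA samples were run for each line, 12 hairpin arrays and 4 control arrays in all, and the p-values below measure only the spread between such samples, not the spread between lines made independently. Of 45037 probe sets, 24456 (54.3%) had a difference of the same sign in all 3 hairpin lines, 10174 of them higher and 14282 lower. The test of the average of the 3 lines against control (limma, Benjamini-Hochberg adjusted p under 0.05) was passed by 65 higher probe sets (0.144%) and 34 lower ones (0.0755%), together 99 (0.22%), of which 6 had no common direction in the 3 lines. The remaining 93 (0.206%) are the members described here, with 62 higher probe sets (0.138%) for 52 genes and 31 lower ones (0.0688%) for 21 genes, or 73 of the 18193 genes tested. Of the 93, 6 are assigned to no gene and 2 to several genes. Values are log2 signals throughout, so that a difference of 1 is a 2-fold change, and signals near 3 are those of genes that hardly register.

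A short hairpin RNA is cut in the cell into a small duplex, of which the antisense strand guides the silencing machinery to a matching mRNA. Messages that match only the seed of a guide can fall as well, and hairpins of different sequence then have different off-target sets. A gene that moves the same way under unrelated hairpins may have moved in the control line instead, since that line is the common comparison, and with 1 control line these cases cannot be told apart.

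The target sites are shown because hairpins with a common seed could have a common off-target set. They are written 5′ to 3′ as in the sample labels, with the bases that pair with positions 2 to 8 of the antisense strand in capitals, if that strand is cut to the length of the target.
Sep15: acagaagagttCCATTTAa
TR1: atcgctctgacaagCTTATTAg
The Sep15 target has 19 bases and the TR1 target 22. The longest run of bases common to both was 3. Neither seed was found among the 1679 mature mouse miRNAs of RefSeq (0 share it).

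The targeted genes were checked first. Selenof lay at log2 signals of 8.02, 8.06, 8.29 and 8.15 in shSep15 cells, 11.57, 11.73, 11.71 and 12.36 in shTR1 cells and 7.86, 7.34, 7.77 and 7.66 in shTR1/shSep15 cells, against 11.56, 10.78, 11.57 and 11.42 in control cells. It was low in both lines with the Sep15 hairpin and had no common direction in the 3 lines. Txnrd1 lay at 7.85, 10.57, 7.89 and 9.71 in shTR1 cells and at 7.18 to 7.91 in shTR1/shSep15 cells, against 9.45 to 10.39 in control cells. The arrays labelled shTR1 replicates 2 and 4 thus had Txnrd1 at the level of control, which goes against their label. Its average over the 3 lines was −1.12 on the log2 scale and did not pass (limma, adjusted p = 0.303).

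A control array also stood apart. The mean log2 signal of 22 immediate-early and YAP target genes was 7.57 to 8.80 in the hairpin arrays, against 7.91, 11.40, 7.84 and 7.70 in control replicates 1 to 4. In control replicate 2 the means of chemokine genes (7.27) and interferon-stimulated genes (7.37) also exceeded control replicates 1, 3 and 4, which lay at 4.64 to 5.07 for the chemokine and at 5.43 to 5.86 for the interferon list. Without control replicate 2, 75 probe sets passed (37 higher, 38 lower), of which 43 are among the 93. Without shTR1 replicates 2 and 4, 50 passed (31 higher, 19 lower), of which 40 are among the 93. The spike-in control probe sets, which carry bacterial RNA added at hybridization, averaged 9.42 to 10.57 in hairpin arrays and 9.59, 10.80, 10.48 and 10.80 in control arrays. With that mean as a covariate 49 passed (24 higher, 25 lower), and its part in the other calls was not tested. CT26 cells had low signals for most epithelial markers, with E-cadherin (Cdh1) at 2.35 to 2.77 in hairpin arrays and 2.31 to 2.80 in control arrays, whereas the mesenchymal filament gene Vim was at 12.3 to 13.1 in hairpin arrays and 12.7 to 13.3 in control arrays. None of the 11 epithelial, 12 mesenchymal, 10 leukocyte or 7 endothelial markers measured passed the average test in a common direction. Of the 11 epithelial markers, 7 were lower and 0 higher in all 3 lines (all genes: 29.1% lower, 25.8% higher). Dim genes were lower more often than bright ones. Of the 11539 genes above 4.52, the median signal of all probe sets, 22.2% were lower in all 3 lines and 32.7% higher. The mean of the epithelial markers was 4.21 to 4.50 in shSep15 arrays, below the 4.70 to 5.25 of control arrays. It was 4.58 to 5.29 in shTR1 and 4.89 to 5.20 in shTR1/shSep15 arrays. In extracts of whole cultures, fewer cells that express a gene and less of its mRNA per cell cannot be told apart.

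The lower members had the largest differences. Over the 31 lower probe sets the median log2 difference was −1.65 in shSep15, −1.21 in shTR1 and −0.97 in shTR1/shSep15 cells, while over all probe sets it was −0.03, −0.04 and −0.01. At least a 2-fold lower average was seen in 24 of them. All 31 passed the test in shSep15 cells alone, 17 in shTR1 cells and 7 in shTR1/shSep15 cells. Over all probe sets these single comparisons, which use the same control arrays, called 885 (1.97%), 81 (0.18%) and 11 (0.0244%).

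Only 7 probe sets (0.0155%) passed in each of the 3 lines with a common direction, and all 7 were lower: those of Dppa2 (2 probe sets), Jakmip3, Tshz1 and Zfp397, and 2 that the array annotation used here assigns to no gene. No higher probe set did so (0 by limma, against 347 at an unadjusted p under 0.05 by ANOVA).

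Dppa2, which binds DNA in early embryos and in pluripotent cells, was the named gene with the largest difference. Its signal ran over 2.89, 3.58 and 5.54 (lowest, median and highest) in the 12 hairpin arrays, against 8.27, 8.60, 8.34 and 7.37 in the control arrays. Every hairpin array lay below every control array, and the 3 lines lay close together. The average difference was −4.42 on the log2 scale (standard error 0.36, limma adjusted p = 2.95e-05), a 21.4-fold lower signal, with −4.41 in shSep15, −4.64 in shTR1 and −4.21 in shTR1/shSep15 cells. A second probe set of Dppa2 gave −3.96 (adjusted p = 6.62e-06). Both remained past the test when any single array was left out. Dppa4, its neighbour on chromosome 16 and its partner in embryonic stem cells, was looked at after these values were seen. It differed by −3.41 in shSep15, −1.29 in shTR1 and 0.06 in shTR1/shSep15 cells and did not pass (limma, adjusted p = 0.277). Of 20 pluripotency and germ line genes on the list, Dppa2 was the only one past the test, and 8 were lower and 3 higher in all 3 lines (all genes: 29.1% lower, 25.8% higher). The mean of this list was low, at 3.82 to 4.27 in hairpin arrays and 4.23 to 4.43 in control arrays. Dim genes were lower more often than all genes, so these counts are not read as an excess of lower genes. Pou5f1 and Nanog, core factors of pluripotency, were at 3.34 to 3.94 and 2.54 to 3.11 in hairpin arrays and 3.25 to 3.78 and 2.70 to 3.28 in control arrays, which is within the range of unexpressed genes on these arrays and does not separate the groups.

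The unassigned probe sets 1416295_a_at and 1416296_at had a pattern like that of Dppa2. The signal of 1416295_a_at ran over 2.31, 2.67 and 3.12 in hairpin arrays, against 7.34, 8.92, 6.41 and 6.49 in control arrays. That of 1416296_at ran over 4.28, 4.46 and 4.73 in hairpin arrays, against 7.93, 9.31, 7.41 and 7.04 in control arrays. The average differences were −4.59 and −3.45 (limma, adjusted p = 6.62e-06 and 1.91e-05). The hairpin arrays of both hardly varied, and control replicate 2 was the highest of all arrays in both. The paper lists Il2rg, the common γ chain gene, among the most lowered signals of all 3 hairpin lines, without giving its probe sets.

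Jakmip3, a coiled-coil protein of the Janus kinase and microtubule interacting family, was dim in every array. It ran over 3.20, 3.40 and 3.70 in hairpin arrays, against 4.77, 4.99, 4.42 and 4.72 in control arrays, with no overlap. The average difference was −1.28 (standard error 0.10, limma adjusted p = 1.91e-05), and it was similar in shSep15 (−1.21), shTR1 (−1.24) and shTR1/shSep15 cells (−1.41). Its neighbours on chromosome 7, Bnip3 (0.80, adjusted p = 0.426) and Dpysl4 (−0.33, adjusted p = 0.512), did not pass.

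**Figure D1:**
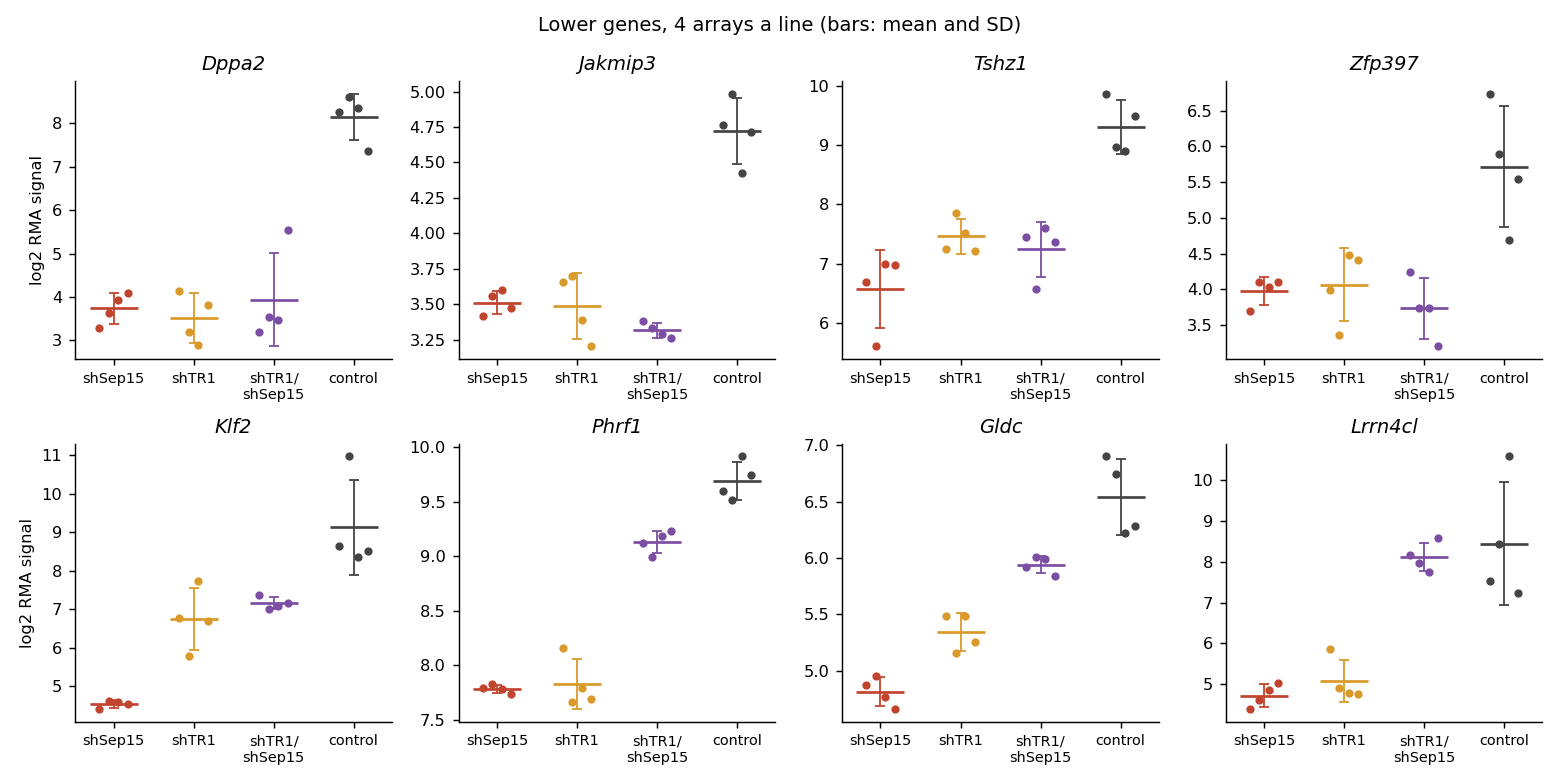
Log2 RMA signal of 8 lower genes in each of the 4 arrays of the shSep15, shTR1, shTR1/shSep15 and control lines, with the mean and SD of each line as bars. For Dppa2, Jakmip3, Tshz1 and Zfp397 the 3 hairpin lines lay at similar levels below control, whereas for Phrf1, Gldc and Lrrn4cl the shTR1/shSep15 arrays lay nearest to control, and the highest control array of Klf2 was replicate 2 at 10.97.

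All 7 lower member genes of chromosome 18 had another one within 20 tested genes. The zinc finger genes Zfp397, Zfp35 and Zfp24 stand next to each other in the order of tested genes (places 82, 83 and 84 of 459). Pcdhb16 and Arap3 (−1.11, adjusted p = 0.042, named here after its values were seen) are at places 194 and 208, and Tshz1 and Zadh2 at 446 and 447. Other Arap3 probe sets gave −0.13 and −0.16 (limma, adjusted p = 0.598 and 0.501). The Arap3 member passed in only 4 of the 16 fits that each left out a single array. Zfp24 ran over 4.75, 5.48 and 6.40 in hairpin arrays, against 7.89, 6.69, 7.13 and 8.02 in control arrays. The average differences were −1.84 for Zfp24 (adjusted p = 0.00457), −1.79 for Zfp397 (adjusted p = 0.0222) and −1.22 for Zfp35 (adjusted p = 0.0184), all from limma. A second Zfp397 probe set was lower by 1.00 with a standard error of 0.10 (adjusted p = 0.000202) and passed in each line, with 5.36 to 5.95 in hairpin arrays and 6.47 to 6.88 in control arrays. The genes on either side, Mapre2 (−0.13) and Ino80c (−0.48), did not pass (limma, adjusted p = 0.827 and 0.161).

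Tshz1, a teashirt-type zinc finger transcription factor, ran over 5.61, 7.23 and 7.86 in hairpin arrays, against 9.87, 8.97, 8.89 and 9.50 in control arrays. No hairpin array reached the lowest control array. The average difference was −2.22 (standard error 0.26, limma adjusted p = 0.00174), and its second probe set gave −1.96 (adjusted p = 0.00316). Zadh2, the adjacent gene, encodes a zinc-binding reductase. It lay at 7.36, 8.25 and 8.60 in hairpin arrays, against 10.38, 8.52, 9.92 and 10.15 in control arrays, so that control replicate 2 overlapped with the hairpin arrays. Its average difference was −1.58 (adjusted p = 0.0313). The next gene, Zfp407, differed by 0.40 in the other direction without passing (limma, adjusted p = 0.565), and the paralogs Tshz2 and Tshz3 were dim (−0.02 and −0.03).

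Pcdhb16, a β-protocadherin of cell adhesion, ran over 2.64, 3.02 and 3.38 in hairpin arrays, against 4.80, 3.48, 4.51 and 3.81 in control arrays. The difference of −1.14 only just passed (limma, adjusted p = 0.0417), and its brightest probe set gave −0.34 (adjusted p = 0.277). Of the 22 β-protocadherins measured, looked at after these values were seen, 16 were lower and 2 higher in all 3 lines by their brightest probe set (all genes: 29.1% lower, 25.8% higher). Their median was −0.13, with none past the test. All 22 were dim, with mean signals of 2.48 to 4.41, and dim genes were lower more often than all genes. Of the 11539 genes above a signal of 4.52, 22.2% were lower and 32.7% higher in all 3 lines. The β-protocadherins are related copies in a cluster, so their probe sets may share signal.

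Klf2, a Krüppel-like factor known to hold lymphocytes and endothelial cells quiescent, differed in size between the lines. It lay at 4.41 to 4.62 in shSep15, 5.79 to 7.74 in shTR1 and 7.02 to 7.37 in shTR1/shSep15 cells, against 8.64, 10.97, 8.37 and 8.52 in control cells. The average difference was −2.97 (standard error 0.39, limma adjusted p = 0.00457), and −2.36 without control replicate 2, which was its highest array. Among the single lines it passed in shSep15 cells only (−4.58, adjusted p = 0.000193), and the 3 hairpin lines differed from each other (F test of limma, adjusted p = 0.0169). Of the 16 Krüppel-like factors measured, Klf2 was the only one past the test, and 7 were lower and 2 higher in all 3 lines (all genes: 29.1% lower, 25.8% higher).

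Phrf1, a protein with a PHD and a RING finger, had the smallest p-value of the average test. It ran over 7.66, 7.81 and 9.23 in hairpin arrays, against 9.60, 9.52, 9.91 and 9.74 in control arrays. The difference was −1.91 in shSep15 and −1.87 in shTR1 cells but −0.56 in shTR1/shSep15 cells, where it did not pass (limma, adjusted p = 1.11e-06, 2.05e-06 and 0.174). The lines differed from each other (F test, adjusted p = 2.62e-05). Gldc, the glycine decarboxylase of the mitochondrial glycine cleavage system, was graded in the same manner, with −1.72, −1.19 and −0.59 (F test of limma, adjusted p = 0.00247). It ran over 4.66, 5.37 and 6.01 in hairpin arrays, against 6.90, 6.74, 6.22 and 6.28 in control arrays. Gcsh and Dld, the other members of that system measured, did not pass (0.23 and 0.05, adjusted p = 0.694 and 0.965). Lrrn4cl, a small membrane protein gene, fell in shSep15 and shTR1 cells (−3.73 and −3.38) but was at 7.75 to 8.58 in shTR1/shSep15 cells, against 7.54, 8.44, 10.59 and 7.23 in control cells. Its common direction thus rested on a difference of −0.33 in the shTR1/shSep15 line (limma, adjusted p = 0.934).

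Mfap5, a protein of elastic microfibrils, was the only 1 of 21 matrix and adhesion genes past the test (−0.84, limma adjusted p = 0.00881), and was at 3.06, 3.72 and 4.01 in hairpin arrays, against 4.61, 4.24, 4.39 and 4.71 in control arrays. The groups did not overlap. A brighter probe set of Mfap5 gave −1.39 (adjusted p = 0.0572). The 3 lower genes of chromosome 15, Foxred2, Ncf4 and Rac2, chosen after their values were seen, are at places 333, 338 and 349 of its 724 tested genes. Rac2, a small GTPase of blood cells, and Ncf4 are both parts of the phagocyte NADPH oxidase, and Foxred2 is an oxidoreductase of the endoplasmic reticulum. Rac2 was at 4.30 to 5.22 in hairpin arrays and 5.19 to 6.14 in control arrays (−1.10, limma adjusted p = 0.0108). Ncf4 was at 3.40 to 4.35 in hairpin arrays and 4.47 to 5.30 in control arrays (−0.97, adjusted p = 0.0251). Foxred2 was at 3.32 to 4.87 in hairpin arrays and 4.63 to 5.67 in control arrays, with overlap (−0.94, limma adjusted p = 0.0499). Its difference was only −0.30 in shTR1/shSep15 cells. Rac2, Ncf4 and Foxred2 passed in 15, 10 and 3 of the 16 fits that each left out a single array. The 14 genes tested between Foxred2 and Rac2 other than Ncf4 did not pass.

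Among the higher members the differences were smaller and less even between the lines. The median over the 62 higher probe sets was 1.04 in shSep15, 0.93 in shTR1 and 0.47 in shTR1/shSep15 cells, and 17 of them were at least 2-fold higher on average. In shSep15 cells 56 of them passed alone, in shTR1 cells 36 and in shTR1/shSep15 cells 0. The shTR1/shSep15 cells had the smallest difference of the 3 lines for 55 of the 62 higher and for 21 of the 31 lower probe sets. This was not counted over all probe sets, so it has no background, and this line also had the fewest calls against control. The lines differed from each other by the F test for 23 higher and 7 lower members (all probe sets: 926, 2.06%). The 12 hairpin arrays lay wholly above the 4 control arrays for 27 higher members (all probe sets: 105, 0.233%) and wholly below for 21 lower members (all: 55, 0.122%).

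**Figure D2:**
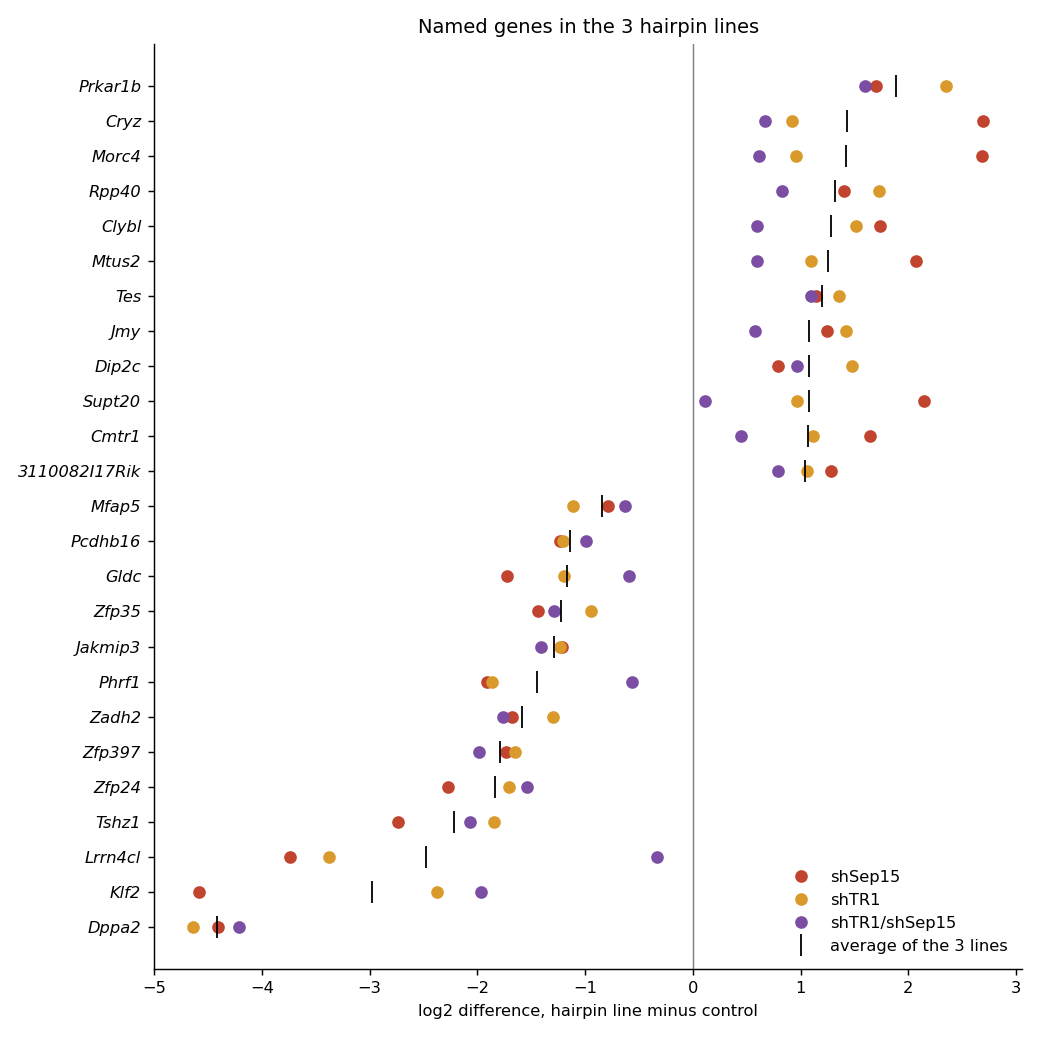
Log2 difference from control of the 25 named genes in shSep15, shTR1 and shTR1/shSep15 cells (points), with the average of the 3 lines as a vertical mark. The lower genes reach −4.64 (Dppa2 in shTR1 cells) and the higher ones 2.69 (Cryz in shSep15 cells), and the shTR1/shSep15 point lies nearest to 0 for most higher genes.

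Cmtr1, the enzyme that methylates the first transcribed nucleotide of the mRNA cap, held best among the higher named genes when single arrays were left out. It ran over 7.37, 7.99 and 8.79 in hairpin arrays, against 7.12, 6.61, 7.39 and 6.80 in control arrays. The difference was 1.07 (standard error 0.13, limma adjusted p = 0.00359), passed whichever array was left out, and was graded over the lines (1.65, 1.11 and 0.45; F test, adjusted p = 0.00462). A second probe set gave 1.04 (adjusted p = 0.00881), whereas 2 others gave 0.15 and 0.01. Rpp40, a subunit of RNase P, which trims the 5′ end of tRNAs, ran over 6.86, 7.75 and 8.44 in hairpin arrays, against 7.03, 5.65, 6.58 and 6.31 in control arrays. It was higher by 1.32 (adjusted p = 0.018), and a second probe set by 1.16 (adjusted p = 0.0464). Rpp21, another subunit, was higher by 1.04 (limma, adjusted p = 0.00887), with 1.67 in shSep15, 1.36 in shTR1 and 0.08 in shTR1/shSep15 cells. Of the 10 RNase P and RNase MRP subunits measured, looked at after these values were seen, the other 8 did not pass, and the brightest probe sets of all 10 had a median of 0.16.

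Cryz and Supt20 of chromosome 3 and Morc4 and Mtus2 elsewhere were highest in shSep15 cells. Cryz, a quinone reductase, was at 10.90 to 11.06 in shSep15 cells, 8.34 to 10.10 in shTR1 cells and 8.49 to 9.16 in shTR1/shSep15 cells, against 8.71, 7.93, 8.39 and 8.10 in control cells. Only the shSep15 arrays were clear of control. Its average was 1.43 (limma, adjusted p = 0.0421) and the lines differed (F test, adjusted p = 0.00592). Supt20, a subunit of the SAGA coactivator complex, differed by 2.14, 0.97 and 0.11 (average 1.07, adjusted p = 0.0174). Morc4, a chromatin ATPase, differed by 2.69, 0.96 and 0.62 (average 1.42, adjusted p = 0.0476), and Mtus2, a microtubule-associated protein, by 2.07, 1.10 and 0.60 (average 1.26, adjusted p = 0.0228). A second Mtus2 probe set was also a member (0.87, limma adjusted p = 0.00881), while another one differed by −0.26 (adjusted p = 0.447). Of 6 further Supt20 probe sets, 5 lay above 0 (0.32 to 0.99), of which 1 passed the average test without a common direction in the 3 lines (0.94, limma adjusted p = 0.0231), and 1 lay at −0.20 (adjusted p = 0.694).

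Dip2c, Jmy and Tes were more even. Dip2c, a relative of the Drosophila disco-interacting protein, ran over 7.35, 7.78 and 8.63 in hairpin arrays, against 7.29, 6.15, 6.93 and 6.58 in control arrays, with no overlap and a difference of 1.08 (limma, adjusted p = 0.0177). Jmy, a p53 cofactor that also nucleates actin, was higher by 1.08 (adjusted p = 0.0164), with 1.24, 1.42 and 0.58 in the 3 lines. Other Jmy probe sets gave 0.73, 0.23 and 0.02 and did not pass (limma, adjusted p = 0.163, 0.421 and 0.965). Tes, a LIM protein of focal adhesions, ran over 8.77, 9.36 and 9.99 in hairpin arrays, against 8.73, 7.33, 8.23 and 8.54 in control arrays. Its difference was 1.20 (adjusted p = 0.0417), and control replicate 2 was the lowest array for Tes, Dip2c, Jmy and Rpp40. Clybl, a mitochondrial lyase, and 3110082I17Rik were higher by 1.28 and 1.05 (limma, adjusted p = 0.0234 and 0.0267).

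Prkar1b, a regulatory subunit of protein kinase A, had the largest average among the higher genes (1.88, limma adjusted p = 0.0263), but its probe sets did not give 1 answer. The member 1434325_x_at ran over 6.13, 7.26 and 8.55 in hairpin arrays, against 5.90, 4.96, 6.17 and 4.60 in control arrays, and a second one was higher by 0.65 (adjusted p = 0.0407). The other 3 differed by 0.11, 0.10 and 0.08 (adjusted p = 0.759, 0.808 and 0.836). Over all member genes, 77 of the 86 further probe sets, on 42 genes, lay on the same side as the member.

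**Figure D3:**
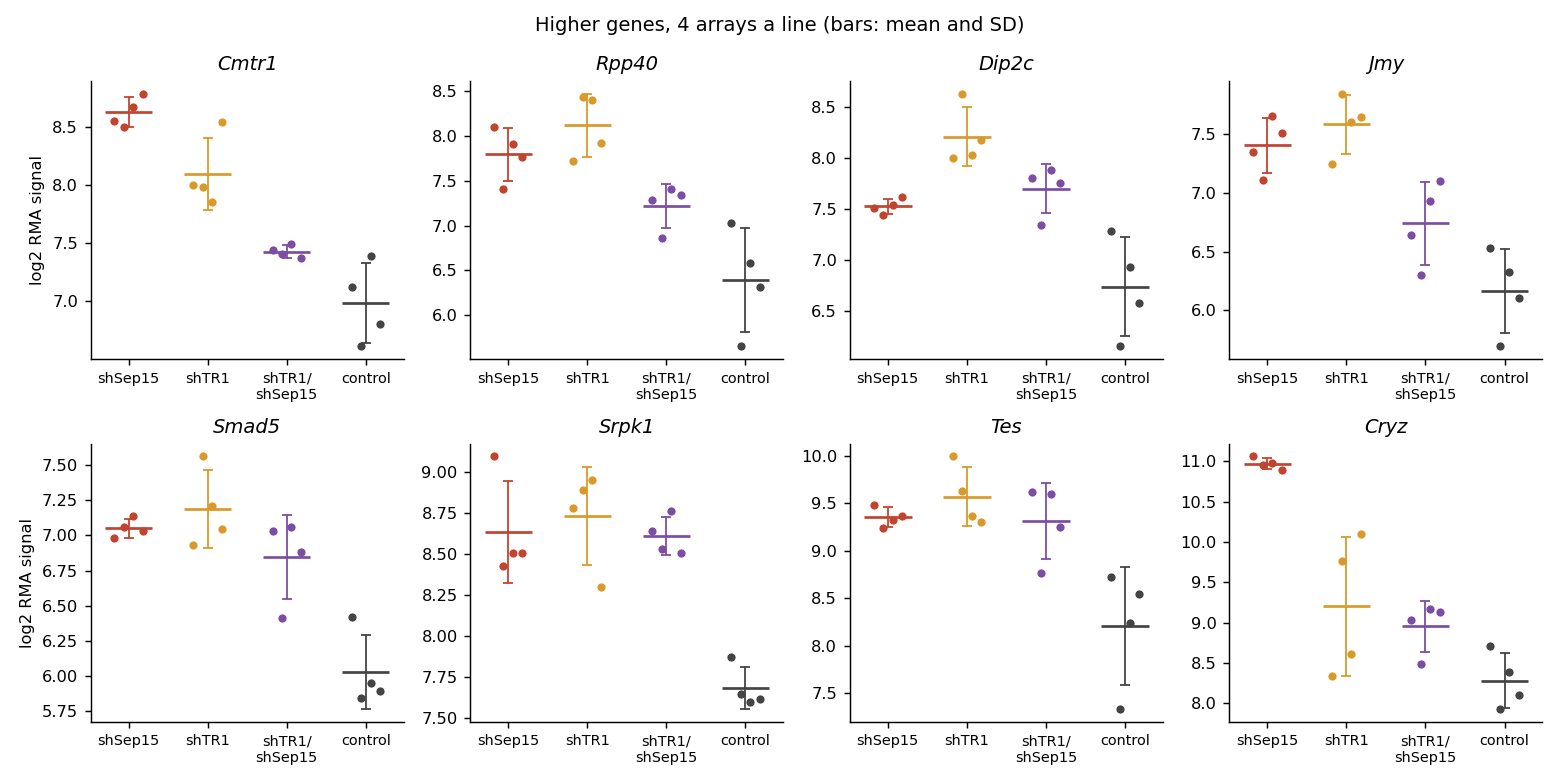
Log2 RMA signal of 8 higher genes in each of the 4 arrays of the shSep15, shTR1, shTR1/shSep15 and control lines, with the mean and SD of each line as bars. Srpk1, Tes and Dip2c lie above control in every hairpin array, whereas Cryz is clear of control in shSep15 cells only, at 10.90 to 11.06.

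Srpk1 and Smad5, chosen after their values were seen, had similar differences in the 3 lines by their member probe sets. Srpk1, a kinase of splicing factors, lay at 8.30, 8.58 and 9.10 in hairpin arrays, against 7.87, 7.64, 7.60 and 7.61 in control arrays, and was higher by 0.95, 1.05 and 0.93 in the 3 lines (average 0.98, limma adjusted p = 0.0052). Another Srpk1 probe set gave 0.09 (adjusted p = 0.859). Smad5, a transducer of bone morphogenetic protein signals, lay at 6.42, 7.04 and 7.56 in hairpin arrays, against 6.42, 5.85, 5.95 and 5.90 in control arrays (average 1.00, limma adjusted p = 0.00626). Other Smad5 probe sets gave 0.77 (adjusted p = 0.171) and 0.08 (adjusted p = 0.916).

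The higher genes were not spread evenly over the chromosomes. Chromosome 17 held 13 of the 52 (1.56% of its 834 tested genes, against 0.289% over the genome), chromosome 13 held 8 (1.14% of 702), chromosome 3 held 8 (0.876% of 913) and chromosome 5 held 6 (0.535% of 1122), and none of these chromosomes held a lower gene. Chromosome 18 held 7 lower genes (1.53% of 459, against 0.117%) and no higher one. Of the 73 member genes, 28 had another member of the same direction within 20 tested genes and 2 had one of the opposite direction. No such count was made for other genes, here or for chromosome 18, so these counts have no background. With more higher than lower members, neighbours of the same direction are also the likelier kind. Without control replicate 2, chromosome 18 held 9 lower genes, and chromosomes 5 and 13 held 1 lower gene each. The counts of higher genes were then 7 on chromosome 17, 8 on chromosome 13, 4 on chromosome 3 and 3 on chromosome 5. In a fit of all hairpin arrays as 1 group against control, 2, 3, 0 and 0 higher genes were left on those chromosomes and 4 lower ones on chromosome 18.

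**Figure D4:**
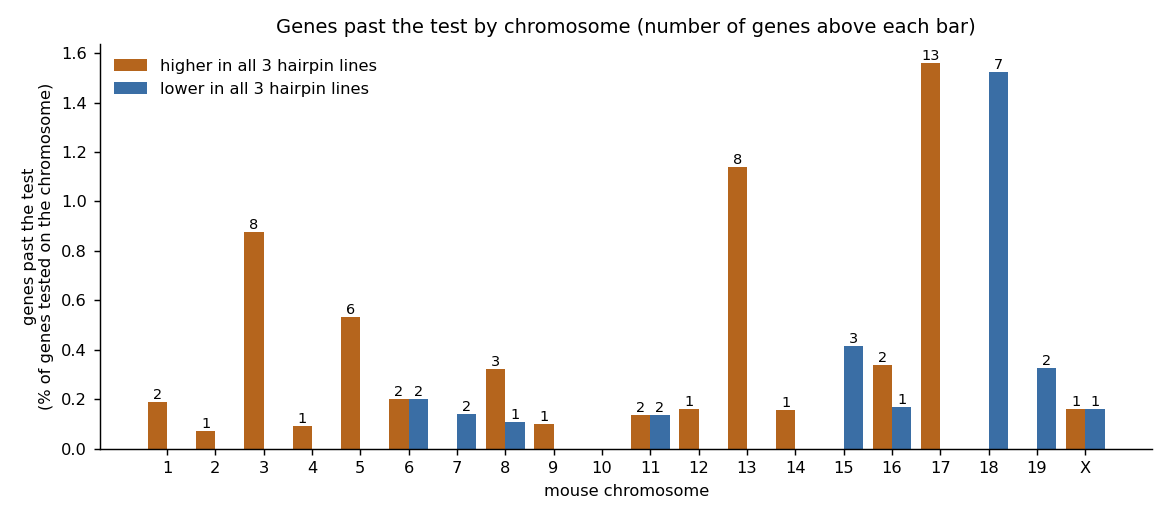
Genes past the average test with a common direction, as percent of the genes tested on each mouse chromosome, with their number above each bar. Higher genes are most frequent on chromosome 17 (13 genes, 1.56%) and chromosome 13 (8 genes, 1.14%), and lower genes on chromosome 18 (7 genes, 1.53%).

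Signals of whole chromosomes were then set side by side, over the 11539 genes whose mean signal was above the median of all probe sets, each centred on its mean over the 16 arrays. For chromosome 17 the median of the hairpin arrays was −0.03 to 0.14, against −0.15 to −0.07 in the control arrays, which did not overlap. The median difference of its genes from control was 0.22 in shSep15, 0.27 in shTR1 and 0.11 in shTR1/shSep15 cells, while that of all bright genes was 0.02, 0.07 and 0.05. In all, 49.8% of its bright genes were higher in all 3 lines, against 32.7% over the genome. The same difference averaged 0.17 over the lines without control replicate 2 and 0.14 after quantile normalization (main 0.21). For chromosome 13 the medians were 0.16, 0.35 and 0.14, and its arrays overlapped with control only through shTR1/shSep15 replicate 2, at −0.16. Chromosome 3 was high in shSep15 cells (0.47) and less so in shTR1 and shTR1/shSep15 cells (0.09 and 0.02). Chromosome 18 as a whole was low in shSep15 cells (−0.18) and near 0 in the other lines (0.01 and −0.01). Genes of a chromosome are not independent, and no test was run on these medians.

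**Figure D5:**
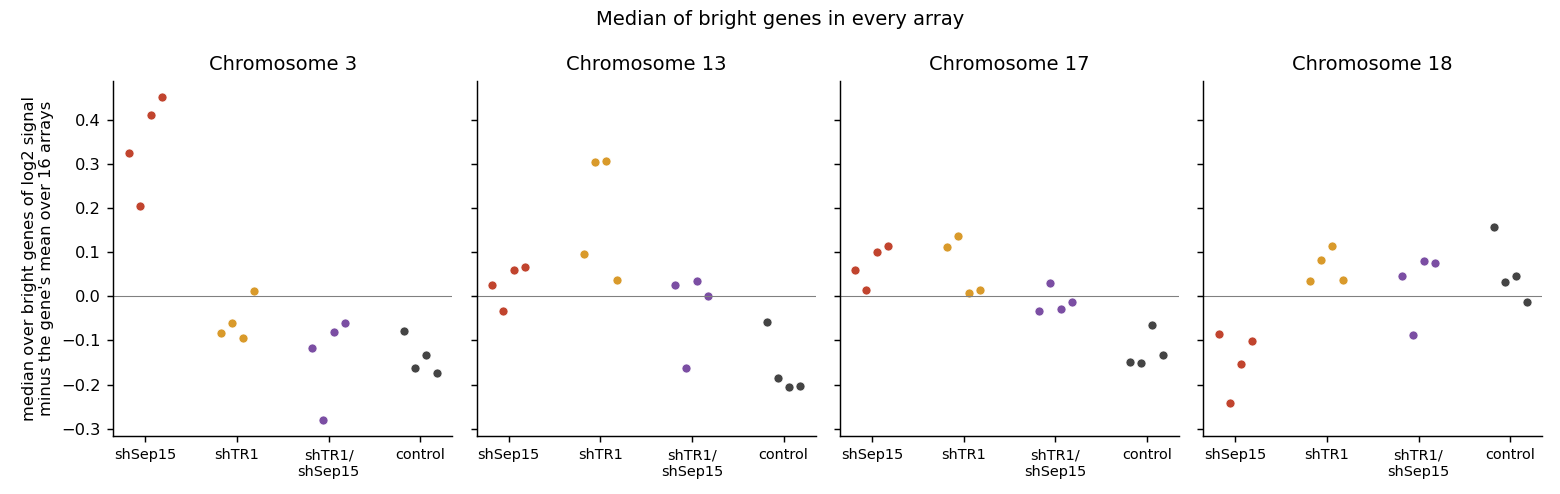
Median over the bright genes of chromosomes 3, 13, 17 and 18 of the log2 signal minus the mean of each gene over the 16 arrays, one point for each array of the shSep15, shTR1, shTR1/shSep15 and control lines. On chromosome 17 all 12 hairpin arrays (−0.03 to 0.14) lie above all 4 control arrays (−0.15 to −0.07), on chromosome 3 only the shSep15 arrays stand out, and on chromosome 18 only the shSep15 arrays are low as a group.

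Among the genes of the 19 reported lists that could be matched to a probe set by the annotation used, only Dppa2, Klf2 and Mfap5 passed the test in a common direction, each in a different list. For the counts below, 25.8% of all genes were higher and 29.1% lower in all 3 lines. For the 11539 bright genes these shares were 32.7% and 22.2%, so lists of bright and of dim genes differ in their background. Genes that process small RNAs, which a hairpin depends on, had 0 of 15 past the test, with 8 higher and 2 lower in all 3 lines and a median of 0.24 (0.08 without control replicate 2). Sensors of double-stranded RNA and interferon-stimulated genes had 0 of 13 and 0 of 27 past it. The interferon-stimulated genes had a median of 1.85 in shSep15 and 0.76 in shTR1 cells but −0.55 in shTR1/shSep15 cells, so they had no common direction. Their mean signal differed between arrays of a line, with 5.94, 7.58, 5.89 and 9.12 in shTR1 replicates 1 to 4. It was thus highest in replicates 2 and 4, where the brightest Txnrd1 probe set was at the level of control. In shSep15 replicates 1 to 4 it was 6.41, 9.10, 8.55 and 8.68. Of the interferon-stimulated genes, 5 of 27 were higher in all 3 lines. Without control replicate 2 that number was 9, still with 0 past the test. The immediate-early list, with 14 of 22 genes lower in all 3 lines and a median of −0.62, had a median of 0.29 without control replicate 2. Chemokine genes were lower in all 3 lines for 13 of 19 (median −0.51, and −0.15 without that array). Genes of receptors that signal through the common γ chain had 10 of 15 lower in all 3 lines (6 without control replicate 2) with a median of −0.16 (−0.07 without it), and none of the 15 past the test. The list names 16 genes, and the annotation used matched the other one to no probe set of its own, so it is not counted here. Whether any of the unassigned members belongs to it cannot be told from that annotation. Of 23 selenoproteins 11 were higher and 3 lower in all 3 lines (median 0.18, and 0.05 without control replicate 2), and of 18 Nrf2 target genes 3 were higher and 2 lower (median 0.11, and −0.04 without it). The unfolded protein response (19 genes, median 0.11, and 0.20 without control replicate 2), G2 and mitosis genes (17 genes, 0.26, and −0.10 without it) and DNA replication genes (20 genes, 0.36, and 0.02 without it) had no gene past the test in a common direction. In the last 2 lists control replicates 2 and 3 (7.63 and 7.88, and 7.55 and 7.93) were below replicates 1 and 4 (9.58 and 9.43, and 9.13 and 8.83), so the control arrays themselves differed.

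Without control replicate 2, Prkar1b, Cryz, Morc4, Clybl, Tes, Supt20, 3110082I17Rik, Lrrn4cl and Zfp397 (its probe set of −1.79) did not pass (limma, adjusted p = 0.0531 to 0.0985), while the other 16 named genes did. Of the 25 named genes, each taken by its probe set with the largest difference, 9 passed whichever single array was left out: Dppa2, Jakmip3, Tshz1, Klf2, Phrf1, Gldc, Zfp24, Zfp35 and Cmtr1. Rpp40, Dip2c, Jmy and Mfap5 lost the call only without control replicate 4 (limma, adjusted p = 0.094, 0.0997, 0.0824 and 0.0583) and Supt20 without control replicate 2 or 4. The Zfp397 probe set of −1.79 lost it without control replicate 2 or 4 or shTR1/shSep15 replicate 3, whereas its second probe set passed in all 16 fits (highest adjusted p = 0.00246). The calls of Prkar1b, Cryz, Morc4, Clybl, Mtus2, Tes, 3110082I17Rik, Lrrn4cl, Zadh2 and Pcdhb16 were lost in 4 to 12 of the 16 such fits. Among all 93 members, 25 passed in every such fit (15 of 31 lower and 10 of 62 higher). Of these 25, 15 also passed in the fit of all hairpin arrays as 1 group against control (11 lower and 4 higher). The spread in that fit includes the differences between the hairpin lines. Klf2, Phrf1, Gldc and Cmtr1 did not pass it, nor did any other higher named gene.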

How the data were processed

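RNA of 4 samples per line was hybridized to Affymetrix mouse genome arrays. The authors converted probe signals with the Robust Multi-Array Analysis algorithm, and the deposited values are log2 signals per probe set, used here as given, so low signals are compressed towards background. The scanner files were not used here. Of 45101 probe sets, 64 control ones were left out. Symbols came from the platform annotation, with 34945 probe sets having 1 symbol, 932 several and 9160 none, and chromosome and gene order from RefSeq (GRCm38.p6). Groups came from the labels. limma 3.58.1 (R 4.3.3) fitted a mean per line to all 16 arrays. The contrast was the mean of the 3 hairpin lines minus control, with p-values adjusted over 45037 probe sets, 12 residual and 2.58 prior degrees of freedom, and members needed the same sign in all 3 lines. Named genes are the 12 genes with the most positive and the 12 with the most negative average among them (a gene counted by its largest difference), genes past each line's test, list genes past the average test, and Selenof and Txnrd1. Genes are represented in lists and chromosomes by their brightest probe set. The members and the lists were chosen with earlier results of these data known. A further list is not reported here. The script was tested on simulated data. Arrays carry no read depth, and their number limits the precision. The covariate for spike-in signal and the chromosome alternatives were chosen after seeing the data, and the families of related genes were listed after the members were known. No column of another series was used (0 found).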

Additional observations from a re-analysis of the deposited data

Results flagged for a closer look

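In each line's 4 arrays, single arrays far from the other 3 were looked for by Dixon's test in 184 groups, 108 of named genes and 76 of list means, where chance flags about 1 in 20. Among the named genes 7 stood apart. Dppa2 was at 5.54 in shTR1/shSep15 replicate 4 (others 3.20 to 3.54), still below every control array. Klf2 was at 10.97 in control replicate 2 (others 8.37 to 8.64). Morc4 was at 6.21 in shTR1 replicate 3 (others 4.38 to 4.65), and Lrrn4cl at 5.85 in shTR1 replicate 1 (others 4.76 to 4.91). Zfp35 was at 7.20 in shTR1/shSep15 replicate 2 (others 7.62 to 7.70), Zadh2 at 7.46 in shSep15 replicate 2 (others 8.18 to 8.31) and Zfp397 at 3.69 in shSep15 replicate 1 (others 4.03 to 4.10).

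Among the list means 13 stood apart. In control replicate 2 the immediate-early list was at 11.40 (others 7.70 to 7.91), chemokine genes at 7.27 (4.64 to 5.07) and sensors of double-stranded RNA at 7.60 (6.26 to 6.30). Control replicate 3 had matrix and adhesion genes at 6.56 (6.10 to 6.17). In shSep15 replicate 2 the hairpin targets were at 9.34 (8.90 to 8.94), small RNA genes at 7.77 (8.02 and 8.03 in replicates 3 and 4), immediate-early genes at 8.80 (8.05 to 8.12) and leukocyte markers at 4.95 (4.66 to 4.70). In shTR1/shSep15 replicate 2 the hairpin targets were at 7.26 (7.73 to 7.78), small RNA genes at 7.49 (7.83 to 7.88) and common γ chain receptors at 5.53 (5.38 to 5.40). In shSep15 replicate 1 the sensors of double-stranded RNA were at 6.48 (8.42 to 8.60), and in shTR1 replicate 1 leukocyte markers were at 5.02 (4.69 to 4.72). What set these arrays apart was not tested.

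The hairpin lines differed from each other in 10 named genes by limma's F test. The adjusted p was 5.12e-08 for Selenof, 2.62e-05 for Phrf1, 0.000472 for Supt20, 0.00247 for Gldc, 0.00462 for Cmtr1, 0.00577 for Lrrn4cl, 0.00592 for Cryz, 0.0068 for Morc4, 0.0157 for Mtus2 and 0.0169 for Klf2. In all of them but Selenof the difference from control had the same sign in the 3 lines and was smallest in shTR1/shSep15 cells.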

How the results depend on the processing

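Of the 93 probe sets past the average test, 7 past it in each line and 926 differing among the hairpin lines, the counts changed most with the test. The methods' ANOVA gave 42, 6 and 480 after Benjamini-Hochberg adjustment and 4543, 566 and 5440 unadjusted. Array weights in limma gave 374 (302 higher, 72 lower), 28 and 5174. Asking for a 2-fold difference as well left 41 and 586 (average and among lines), and bright probe sets alone had 4 past each line's test. A fit of 1 hairpin group against control gave 23, and the same with the line as a random block 20. The average without the shSep15 line gave 38 and without the shTR1/shSep15 line 542. Without shTR1 replicates 2 and 4, 50 passed. The spike-in mean as a covariate, chosen after seeing the data, gave 49 (24 higher, 25 lower) and 1445, and an intensity trend 65 (33 higher, 32 lower) against 62 higher and 31 lower. The cause of these shifts was not tested. Median centring (85), quantile normalization (99) and 1 probe set a gene (107) stayed within 1.5 times the count, all by limma.

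Leaving out 1 array at a time gave 30 (without control replicate 4) to 227 (without control replicate 1) for the average, 6 to 13 (without control replicate 2) for each line's test, and 393 (without shSep15 replicate 3) to 1887 (without control replicate 2) among the lines. The average also moved by over 1.5 times without shSep15 replicates 1, 2, 3 and 4 (50, 145, 46 and 47), shTR1 replicates 1 and 2 (174 and 60) and shTR1/shSep15 replicates 1, 3 and 4 (41, 35 and 41), and the differences among the lines without shSep15 replicate 4 (402) and shTR1/shSep15 replicates 1 to 4 (536, 487, 461 and 492).

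Replicate numbers did not pair the arrays: deviations of the 24 same-numbered pairs correlated at −0.53 to 0.47, and 8 were above 0.1. With the replicate block 103 passed (77 higher, 26 lower), 6 in each line and 661 among the lines.

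For the 27 named genes, 660 of 896 values under these alternatives kept direction and side of the threshold, 232 no longer passed and 2, both of Txnrd1, newly passed. The 2 that changed sign were other probe sets, of Mtus2 (−0.26) and Supt20 (−0.20). Precision is limited by 4 arrays a line and 1 control line, and 15 members had a control mean under a log2 signal of 5.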
